A study of Mus musculus with 6 samples.

Results

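Collagen chains and the genes whose products fold, modify, trim and cross-link them were examined in the apex of mouse hearts. The 32 genes are 14 chain genes of the interstitial collagens and 18 processing genes, which comprise hydroxylases, chaperones, propeptide proteins, lysyl oxidases and the collagen-binding glycoprotein Sparc. They were chosen by gene symbol, and each of the 59 probe sets annotated to exactly 1 of them was taken, out of 45101 probe sets and 18193 named genes on the array. Of the 32 genes, 30 had such a probe set. Adamts2 had none in the annotation used here, and the probe sets of Loxl2 also carry the name of another gene, so these 2 genes have no value. A filter on dim probe sets left 28 genes with 46 probe sets to test, 13 of the 14 chains and 15 of the 18 processing genes. Col8a2 and P4ha3 did not pass it.

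Total RNA of 6 hearts was measured on Affymetrix arrays, 1 heart per array. The mice were males of 6 to 7 weeks. All 6 animals carried a Fog2 gene with 1 floxed and 1 deleted allele (Fog2flox/delta). In 3 of them an alpha MHC Cre transgene was present as well, so that Cre recombinase is made in cardiomyocytes and can delete the floxed part there. The other 3 had no Cre. The latter were therefore not wild type, and no animal carried Cre without the floxed allele, so an effect of Cre itself and an effect of the deletion cannot be told apart. The study asked how Fog2, a partner protein of GATA transcription factors, affects gene expression in the adult heart.

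Fibrillar collagens are made as procollagen chains in the endoplasmic reticulum, where prolyl and lysyl hydroxylases modify them and the chaperones Serpinh1, Crtap and Ppib assist their folding into a rope-like helix. After secretion, proteases remove the propeptides, fibrils form, and lysyl oxidases cross-link them. In the heart these collagens are made chiefly by fibroblasts and form the scaffold around the muscle fibres, whereas the Cre transgene acts in cardiomyocytes.

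Values are log2 signals of probe sets, which combine the probes that target the same transcript. A difference is the mean with Cre minus the mean without, so that 1 unit is 2-fold. A gene is represented by its tested probe set with the highest mean, and levels are not compared between genes, since probes differ in how strongly they bind. A gene is said to have risen or fallen where limma's adjusted p over the 27022 tested probe sets was under 0.05. The array medians lay between 5.72 and 5.81, and the 10 cardiomyocyte markers ranged from a mean of 12.40 to 13.86, as the labelled tissue would have. The targeted gene, Zfpm2 by its official symbol, had 1 probe set that was lower with Cre, by -0.88 ± 0.13 (SE), and 1 that was higher, by 1.68 ± 0.12. No source used here says which exons they cover, so they do not check the deletion.

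With Cre, 15 of the 28 tested genes rose and 0 fell. Among all 13062 tested genes, 4.20% rose and 2.04% fell. At an unadjusted p under 0.05, limma gave 23 higher members and 1 lower, Plod2. Of all 13062 tested genes, 1373 were higher and 1106 lower at that threshold. The chains and the processing genes differed in how many moved: 11 of 13 tested chains rose, with a median difference of 1.16, and 4 of 15 tested processing genes rose, with a median of 0.45. The median over all tested genes was -0.01. Differences of at least 2-fold were found for 9 of the 13 chains and for 1 of the 15 processing genes, Pcolce, against 1.97% of all tested genes. The lowest heart with Cre lay above the highest without Cre for 12 of 13 chains and 12 of 15 processing genes, compared with 13.2% of all tested genes. The difference between chains and processing genes was not tested. Without the filter on dim probe sets, Col14a1 was the only member to pass, and without aMHC_Cre 2 the count was 7, all of them chains, as Col5a2, Col5a3, Col6a1 and Pcolce then lay just past the threshold (adjusted p 0.052 to 0.068), and Col5a1, Serpinh1, Loxl1 and Sparc did not pass either. A setting chosen after seeing the data kept all probe sets, with a robust variance that follows the signal. There 17 members passed, 11 of them chains.

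**Figure D1:**
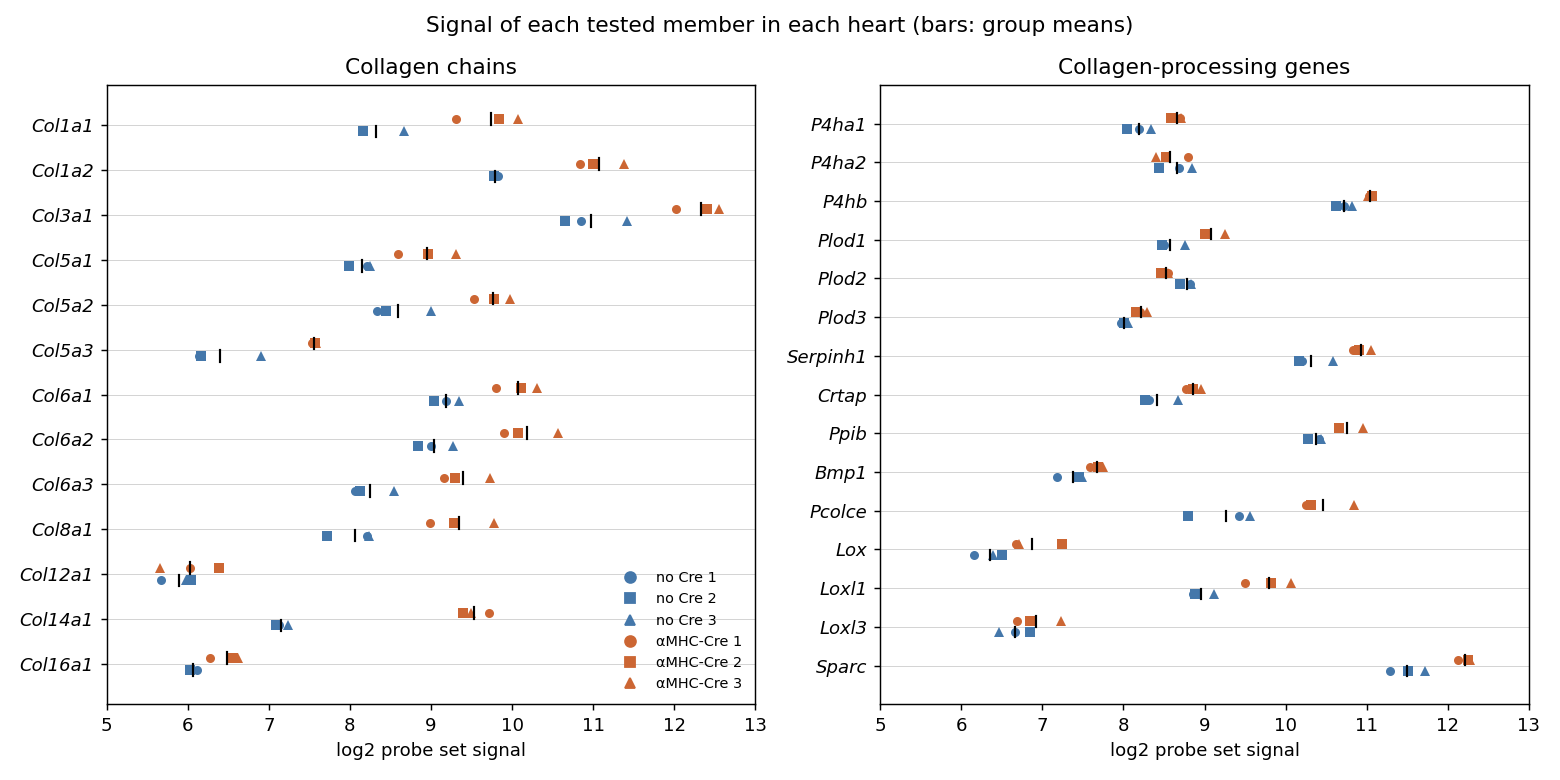
Log2 signal (x axis) of the 28 tested genes in each of the 6 hearts, with chains in the left panel and processing genes in the right; blue points are hearts without Cre, orange points hearts with Cre, shapes give the replicate, and black bars are group means. The orange points lie right of all blue points for 12 of 13 chains, and Plod2 is the gene whose orange points all lie to the left.

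The 6 fibrillar chain genes among the members all rose. Col27a1, a fibrillar chain outside the member list and named after its values were seen, did not pass (0.34 ± 0.12, SE, limma adjusted p 0.16). Col1a1 and Col1a2 encode the chains of type I collagen, the main fibril collagen of the heart. Col1a1 read 8.16, 8.16 and 8.66 in no Cre hearts, compared with 9.31, 9.84 and 10.08 in Cre hearts. Its groups did not overlap, and the difference was 1.41 ± 0.21 (SE; 2.67-fold, limma adjusted p 0.0064). Col1a2 read 9.83, 9.77 and 9.78 in no Cre hearts, compared with 10.84, 11.00 and 11.38 in Cre hearts. The hearts without Cre lay close together, those with Cre were spread more widely, and the difference was 1.28 ± 0.15 (2.42-fold, adjusted p 0.0018). The within-heart difference between Col1a1 and Col1a2, the partners in the type I molecule, overlapped between the groups.

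Col3a1, the chain of type III collagen that forms thinner fibrils with type I, read 10.85, 10.65 and 11.41 in no Cre hearts, compared with 12.02, 12.41 and 12.55 in Cre hearts. It rose by 1.35 ± 0.21 (adjusted p 0.0075), and its dimmer probe set by 2.06 ± 0.25 (adjusted p 0.0021), from 7.52 ± 0.49 (SD, n = 3) to 9.58 ± 0.32. Type V collagen is a minor fibril component that helps fibrils to start and limits their width. Its genes Col5a2 and Col5a3 rose by 1.17 ± 0.19 (SE) and 1.16 ± 0.20, and Col5a1 by 0.81 ± 0.18 (adjusted p 0.036). The hearts with Cre agreed closely for Col5a3, at 7.53, 7.56 and 7.59, whereas those without Cre read 6.14, 6.16 and 6.90. Col5a1 lost its call in the fit with quantile normalization (adjusted p 0.061) and when any single heart other than aMHC_Cre 1 was left out.

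Type VI collagen builds beaded filaments close to cells, and its 3 chains among the members rose by similar amounts. Col6a1 read 9.18, 9.04 and 9.35 in no Cre hearts, compared with 9.80, 10.11 and 10.30 in Cre hearts, and so rose by 0.88 ± 0.16 (SE, adjusted p 0.013). Col6a2 and Col6a3 rose by 1.14 ± 0.19 and 1.15 ± 0.19. For these 3 members the order of the hearts with Cre was the same, with aMHC_Cre 1 lowest and aMHC_Cre 3 highest. Col6a4, outside the member list and named after its values were seen, differed by 0.10 ± 0.12 with overlapping groups (limma adjusted p 0.78). Col8a1, a chain of the short, network-forming type VIII collagen of vessel walls and remodelling tissue, read 8.21, 7.72 and 8.24 in no Cre hearts, compared with 8.99, 9.28 and 9.77 in Cre hearts. It rose by 1.29 ± 0.22 (adjusted p 0.010), and a dimmer tested probe set gave 1.29 as well. Its partner chain Col8a2 was among the dim probe sets, at 3.87, 1.52 and 3.92 in no Cre hearts, compared with 3.66, 3.33 and 5.01 in Cre hearts, and these groups overlapped.

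The fibril-associated collagens sit on the surface of fibrils and have interrupted helices, and 1 of the 3 tested members rose. Col14a1 had the largest difference of all members. It read 7.13, 7.09 and 7.24 in no Cre hearts, compared with 9.71, 9.39 and 9.49 in Cre hearts. The spread within each group was small beside the gap between them, and the rise was 2.38 ± 0.13 (SE; 5.20-fold, adjusted p 3.4e-05). Its dimmer tested probe set rose by 1.55 ± 0.12 (adjusted p 0.00025). Col14a1 passed in every alternative that was run. Col16a1 read 6.12, 6.03 and 6.03 in no Cre hearts, compared with 6.27, 6.56 and 6.63 in Cre hearts. These groups did not overlap, but the difference of 0.42 ± 0.13 did not pass (adjusted p 0.11). Col12a1 read 5.67, 6.04 and 5.98 in no Cre hearts, compared with 6.03, 6.38 and 5.66 in Cre hearts, and the groups overlapped, with a difference of 0.13 ± 0.19 (adjusted p 0.81). The other 3 probe sets of Col12a1 were too dim to be tested. Outside the member list, Col22a1 of this class rose, by 0.54 ± 0.13. Col9a1, Col9a2 and Col20a1, named after their values were seen, did not pass, at -0.47 ± 0.13, -0.05 ± 0.15 and -0.003 ± 0.21. For Col9a1 every heart with Cre lay below every heart without (limma adjusted p 0.070).

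**Figure D2:**
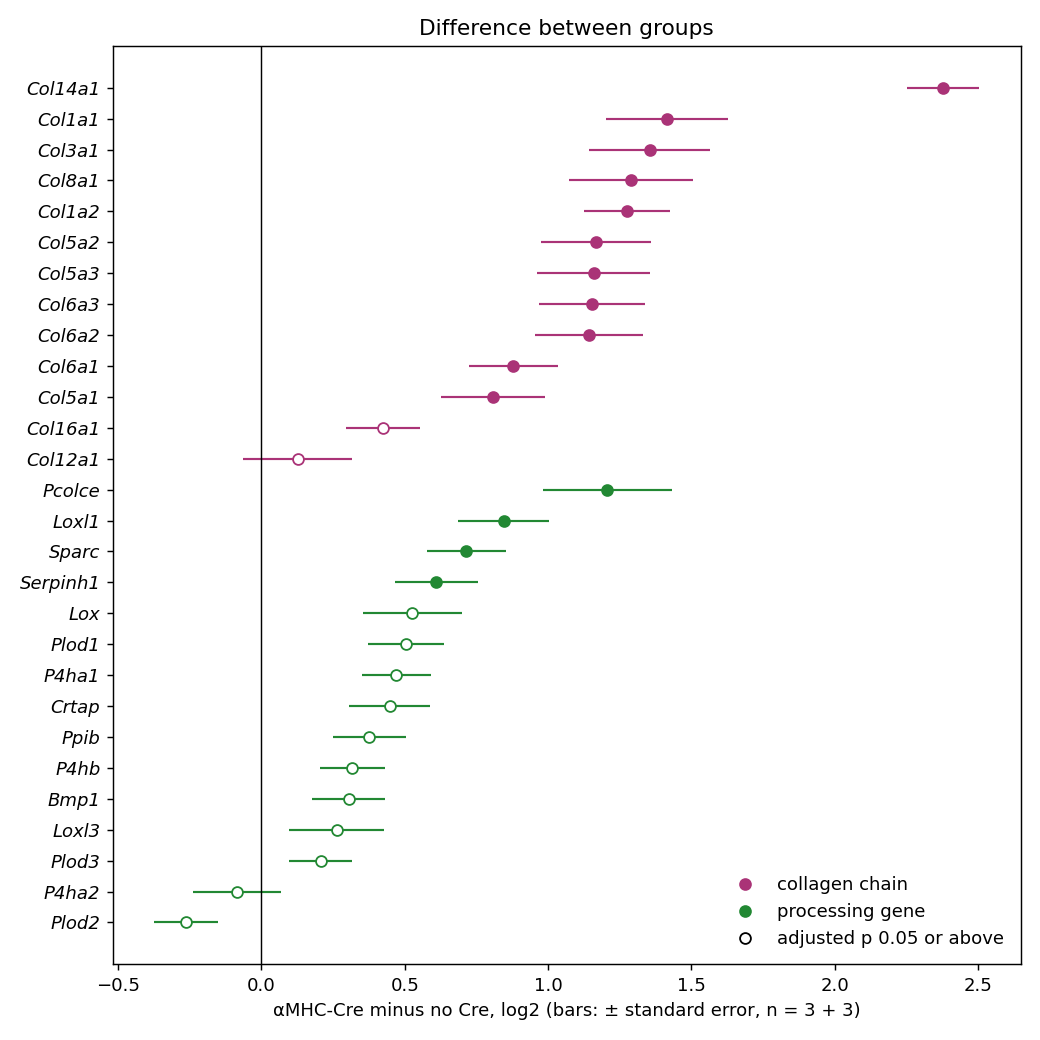
Difference between hearts with and without Cre on the log2 scale (x axis) for the 28 tested genes, chains in purple above and processing genes in green below; bars are standard errors (3 hearts per group), and open circles did not pass the adjusted p of 0.05. Filled circles run from 0.81 for Col5a1 to 2.38 for Col14a1 among chains and from 0.61 for Serpinh1 to 1.21 for Pcolce among processing genes.

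None of the tested prolyl 4-hydroxylase and lysyl hydroxylase members passed. Prolyl 4-hydroxylase makes the hydroxyproline that keeps the helix stable, and its catalytic subunits are encoded by P4ha1, P4ha2 and P4ha3. P4ha1 read 8.20, 8.05 and 8.33 in no Cre hearts, compared with 8.70, 8.59 and 8.71 in Cre hearts. The groups did not overlap, and the difference was 0.47 ± 0.12 (SE, adjusted p 0.061). P4ha1 passed in 7 of 19 alternatives. At its second tested probe set the groups overlapped, with a difference of 0.43 ± 0.16 (limma adjusted p 0.19). P4ha2 read 8.69, 8.44 and 8.84 in no Cre hearts, compared with 8.79, 8.53 and 8.40 in Cre hearts. Here the groups overlapped, with a difference of -0.09 ± 0.15. P4hb, the shared subunit that is also protein disulfide isomerase, differed by 0.32 ± 0.11 (adjusted p 0.17), and P4ha3 was too dim to test, at 1.92 to 3.60 without Cre and 2.59 to 3.87 with Cre.

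Lysyl hydroxylases prepare lysines for cross-links and sugar attachment. Plod1, which acts mainly on the helix, read 8.50, 8.48 and 8.77 in no Cre hearts, compared with 9.00, 9.01 and 9.25 in Cre hearts. The difference of 0.51 ± 0.13 (SE) missed the threshold (adjusted p 0.066), and Plod1 passed in 7 of 19 alternatives. The groups overlapped at the dimmer tested probe set of Plod1, with a difference of 0.43 ± 0.32 (limma adjusted p 0.56). Plod2, which acts on the telopeptides at the chain ends, read 8.82, 8.70 and 8.83 in no Cre hearts, compared with 8.56, 8.46 and 8.56 in Cre hearts. All 3 hearts with Cre lay below all 3 without, the reverse of the other processing genes that did not overlap, yet the difference of -0.26 ± 0.11 did not pass (adjusted p 0.26), and the groups overlapped at its second probe set (-0.15 ± 0.17). Plod3 differed by 0.21 ± 0.11 (adjusted p 0.38).

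Related genes were also set against each other within each heart, for 7 pairs that were chosen after their values had been seen. Plod1 minus Plod2 read -0.33, -0.22 and -0.07 in no Cre hearts, compared with 0.44, 0.55 and 0.69 in Cre hearts. P4ha1 minus P4ha2 read -0.49, -0.39 and -0.51 in no Cre hearts, compared with -0.10, 0.06 and 0.31 in Cre hearts. Neither pair overlapped between the groups, with shifts of 0.77 and 0.56. These shifts restate the differences of the single genes, and the values within a heart do not compare levels between genes. No p is given, and the lack of overlap is no test, because the pairs were chosen for their values. Col14a1 moved away from Col12a1 by 2.25 and from Col16a1 by 1.95, also with no overlap.

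**Figure D3:**
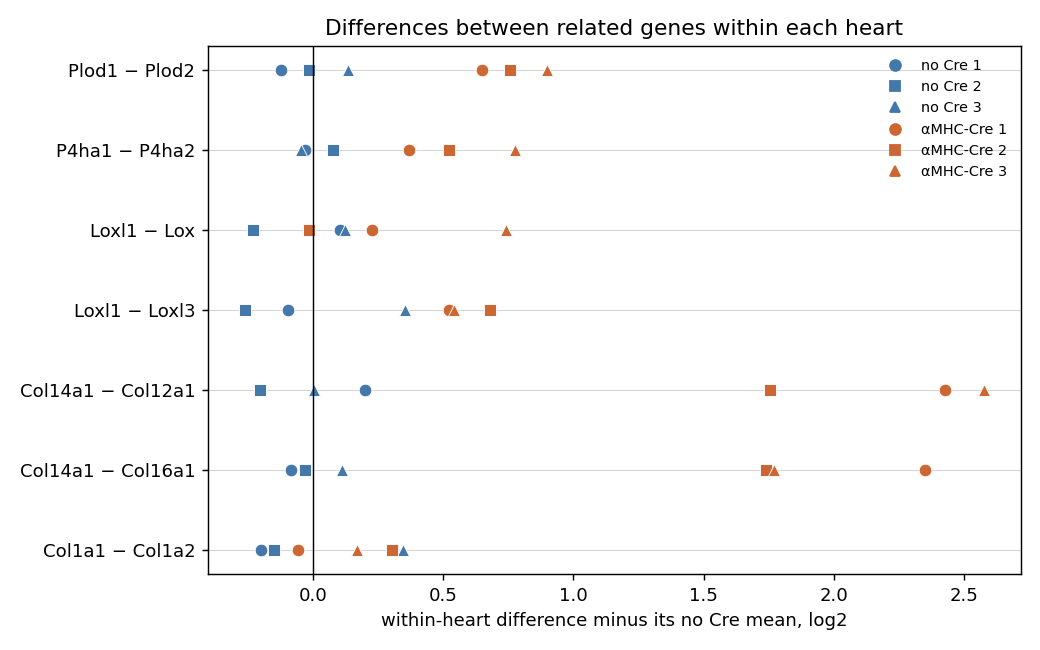
Within-heart log2 difference between related genes, given relative to its mean in hearts without Cre (x axis), for 7 pairs; blue points are hearts without Cre and orange points hearts with Cre, with shapes for the replicate. The orange points lie right of the blue ones for 5 pairs, and the groups overlap for Loxl1 minus Lox and for Col1a1 minus Col1a2.

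Of the 3 chaperone genes, Serpinh1 rose. It encodes HSP47, a chaperone specific to procollagen, and read 10.20, 10.17 and 10.59 in no Cre hearts, compared with 10.83, 10.91 and 11.05 in Cre hearts. The difference was 0.61 ± 0.14 (SE, adjusted p 0.045), a call that was lost when any single heart other than no_Cre 3 was left out. The second probe set of Serpinh1 did not pass, at 0.54 ± 0.14 (limma adjusted p 0.067). Crtap and Ppib, partners in the complex that 3-hydroxylates proline, differed by 0.45 ± 0.14 and 0.38 ± 0.13 without passing (adjusted p 0.12 and 0.15). The groups did not overlap for either gene at the brighter probe set, and they overlapped at the second probe set of Ppib.

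Pcolce had the largest difference of the processing genes. Its product enhances the removal of the C-terminal propeptide by Bmp1. Pcolce read 9.42, 8.80 and 9.56 in no Cre hearts, compared with 10.25, 10.31 and 10.84 in Cre hearts. It rose by 1.21 ± 0.22 (SE; 2.31-fold, adjusted p 0.016), and its second probe set by 1.11 ± 0.19. Bmp1, the protease itself, read 7.18, 7.45 and 7.48 in no Cre hearts, compared with 7.59, 7.69 and 7.75 in Cre hearts. The groups lay close together without overlapping, and the difference of 0.30 ± 0.13 did not pass (adjusted p 0.25).

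Of the 3 tested lysyl oxidase members, Loxl1 rose. It read 8.86, 8.88 and 9.12 in no Cre hearts, compared with 9.51, 9.82 and 10.06 in Cre hearts, a rise of 0.85 ± 0.16 (SE, adjusted p 0.017). Lox, the founding member of the family, read 6.15, 6.51 and 6.39 in no Cre hearts, compared with 6.68, 7.24 and 6.72 in Cre hearts. These groups did not overlap, but aMHC_Cre 2 stood above the other 2 hearts with Cre, and the difference of 0.53 ± 0.17 did not pass (adjusted p 0.14). Without aMHC_Cre 2 the difference was 0.35. The second tested probe set of Lox gave 0.32 ± 0.14 (limma adjusted p 0.27), also without overlap. Loxl3 differed by 0.26 ± 0.17 with overlapping groups, and by 0.11 to 0.38 when 1 heart was left out, lowest without aMHC_Cre 3. Loxl4, outside the member list and named after its values were seen, differed by -0.21 ± 0.12 without passing (limma adjusted p 0.42). Its hearts with Cre all lay below those without. Sparc, a secreted glycoprotein that binds fibril collagens, read 11.28, 11.51 and 11.72 in no Cre hearts, compared with 12.12, 12.25 and 12.28 in Cre hearts. It rose by 0.71 ± 0.14 (adjusted p 0.019). The calls of Loxl1 and Sparc were lost without aMHC_Cre 2, aMHC_Cre 3 or no_Cre 1 (adjusted p up to 0.082 and 0.089), and that of Loxl1 also without no_Cre 2. Sparc did not pass as a mean over its probe sets either (adjusted p 0.11).

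For 16 genes more than 1 probe set was tested, which shows how far a value depends on the probes. Of the 22 tested chain probe sets 20 rose, and of the 24 tested probe sets of processing genes 6 rose, against 3.43% of all tested probe sets. All tested probe sets of the 8 chain genes with more than 1 passed in the same direction. Among chains the sizes spread most for Col14a1 and Col3a1, from 1.55 to 2.38 and from 1.35 to 2.06. Sparc was the gene whose probe sets disagreed in sign: the brighter probe sets rose by 0.71 and 0.77, and a much dimmer one, at 6.79 ± 0.14 (SD, n = 3) without Cre, differed by -0.38 ± 0.20 (SE) without passing.

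**Figure D4:**
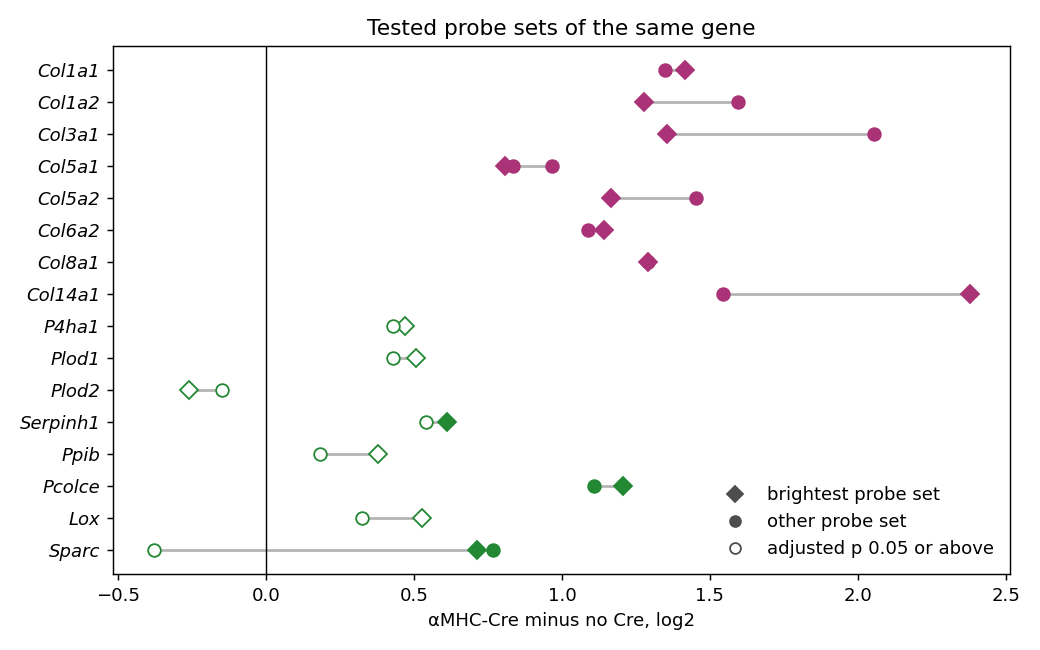
Difference between hearts with and without Cre on the log2 scale (x axis) at every tested probe set of the 16 genes that have more than 1; diamonds are the brightest probe set, circles the others, open symbols did not pass the adjusted p of 0.05, and chains are purple, processing genes green. The probe sets of a gene lie on 1 side of 0 except for Sparc.

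Hearts of the same group also differed from each other in an order that many members shared, a pattern noticed after the values had been seen. Among hearts with Cre, aMHC_Cre 3 was the highest for 11 of 13 chains and 12 of 15 processing genes, against 35.9% of all tested genes. In the same group aMHC_Cre 1 was the lowest for 11 chains and 10 processing genes, against 23.7% of all tested genes. Col14a1 and Col12a1 were the chains that departed from this order. Without Cre, no_Cre 3 was the highest for 10 chains and 13 processing genes, where 49.1% of all tested genes had their highest value.

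Set against the mean of the hearts without Cre, the median chain stood at -0.04, -0.15 and 0.18 in those hearts and at 0.93, 1.16 and 1.49 with Cre. The median processing gene stood at -0.04, -0.10 and 0.14 without Cre and at 0.33, 0.39 and 0.54 with Cre. Within a heart, the chain median exceeded the processing median by 0.61, 0.77 and 0.94 with Cre, while without Cre the gap lay between -0.05 and 0.04. No p is given for these medians, because the members were chosen with earlier results known.

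Other genes of the pathway were taken from 2 further lists. Of 17 other collagen chain genes tested, 7 rose and 0 fell, with a median of 0.37. At an unadjusted p under 0.05, limma gave 9 higher and 1 lower, against 1373 and 1106 of all 13062 tested genes. Type IV collagen forms the sheet of basement membranes. Col4a4 read 6.27, 5.95 and 6.53 in no Cre hearts, compared with 7.84, 7.84 and 8.26 in Cre hearts, a rise of 1.73 ± 0.18 (SE), and Col4a3, Col4a6 and Col4a5 rose by 1.66 ± 0.16, 0.93 ± 0.15 and 0.77 ± 0.13. Without Cre, Col4a3 had a mean of 5.05, below the dimmest tested probe set, whose mean was 5.16. It passed the filter on dim probe sets only through its Cre hearts, so its call depends on the filter. The most widespread type IV chains, Col4a1 and Col4a2, did not pass, at 0.58 ± 0.16 (adjusted p 0.082) and 0.37 ± 0.17 (adjusted p 0.31, groups overlapping), and are named here after their values were seen. Col15a1 and Col18a1, of the collagens near basement membranes, rose by 1.36 ± 0.27 and 0.57 ± 0.11, and Col22a1, found at tissue junctions, by 0.54 ± 0.13.

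Of 28 further biosynthesis and turnover genes tested, 3 rose and 1 fell, against 4.20% and 2.04% of all tested genes. The median of the list was 0.14. At an unadjusted p under 0.05, limma gave 11 higher and 1 lower, against 1373 and 1106 of all 13062 tested genes. P3h2, a prolyl 3-hydroxylase, read 5.01, 5.49 and 5.18 in no Cre hearts, compared with 7.72, 7.59 and 7.83 in Cre hearts. It rose by 2.49 ± 0.15 (SE, adjusted p 4.8e-05). P4htm, a transmembrane prolyl 4-hydroxylase that is not known as a collagen enzyme, rose by 1.14 ± 0.13, and Creb3l2, a transcription factor of the secretory pathway, by 0.57 ± 0.13. P3h4, a partner of lysyl hydroxylase in the endoplasmic reticulum, read 7.88, 7.64 and 8.05 in no Cre hearts, compared with 7.04, 6.73 and 7.07 in Cre hearts. It fell by 0.91 ± 0.15 on the log2 scale (adjusted p 0.0094).

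Markers of the cell types that the apex can hold were read in the same hearts. Of 15 fibroblast markers, 4 rose and 0 fell, with a median of 0.33, and the mean log2 level over the list was 9.46 to 9.52 without Cre and 9.89 to 10.04 with Cre. Vcam1, Mfap5, Lum and Dpt rose, by 2.02 ± 0.15, 1.02 ± 0.18, 0.74 ± 0.12 and 0.55 ± 0.13 (SE), and the other 11 did not pass. Of the 15, 13 had a positive difference, and 10 were higher and 0 lower at an unadjusted p under 0.05 in limma. Of all 13062 tested genes, 1373 were higher and 1106 lower at that threshold, and 4.20% rose by adjusted p. For 10 of the 15, every heart with Cre lay above every heart without, against 13.2% of all tested genes. Thy1 and Scara5, named after their values were seen, differed by -0.16 ± 0.17 and -0.18 ± 0.17. Of 8 tested markers of activated fibroblasts, 4 rose, with Postn at 1.36 ± 0.19, Cilp at 1.28 ± 0.26, Comp at 1.08 ± 0.21 and Meox1 at 0.99 ± 0.23. The other 4, named after their values were seen, overlapped between the groups and did not pass: Acta2 differed by 0.80 ± 0.30, Ddah1 by 0.43 ± 0.28, Thbs4 by -0.23 ± 0.17 and Fap by -0.23 ± 0.18. Over these 8 markers the mean level was 7.07 to 7.51 without Cre and 7.60 to 8.21 with Cre. At an unadjusted p under 0.05, limma gave 5 higher and 0 lower of the 8. Comp, at a mean of 5.14 without Cre, passed the filter on dim probe sets only through its Cre hearts. The part of fibroblast number or state in the collagen values was not tested, and in bulk tissue more cells of a type and more RNA per cell cannot be told apart.

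Markers of the remaining cell types gave few calls. Of all 13062 tested genes, 1373 were higher and 1106 lower at an unadjusted p under 0.05 in limma. None of 10 smooth muscle and pericyte markers passed (limma; 1 higher at an unadjusted p under 0.05), with Rgs5 at 0.02 ± 0.13 (SE) and Abcc9 at 0.07 ± 0.11. None of 12 macrophage markers passed (1 lower unadjusted), with Lyz2 at -0.03 ± 0.14 and Csf1r at -0.01 ± 0.13, and none of 10 cardiomyocyte markers (0 unadjusted), some of which read near the array maxima of 13.97 to 14.00, where differences may be compressed. Of 12 endothelial markers Vwf rose, by 1.12 ± 0.17, and the other 11 did not pass. At an unadjusted p under 0.05 in limma, 3 of the 12 were higher and 0 lower. Eng and Emcn, named after their values were seen, differed by 0.49 ± 0.12 and 0.46 ± 0.13 without overlap (adjusted p 0.058 and 0.077). The list median was 0.12, and 9 of the 12 had a positive difference. Cldn5, Flt1 and Egfl7, named after their values were seen, differed by -0.45 ± 0.23, -0.23 ± 0.15 and -0.10 ± 0.14. The single tested epicardial marker, Upk1b, rose by 0.63 ± 0.15, and of 2 tested cartilage and valve markers Cnmd rose by 0.63 ± 0.14. Cnmd, at a mean of 5.06 without Cre, passed the filter on dim probe sets only through its Cre hearts. An array measure of RNA quality also separated the groups: the 3' minus 5' log2 signal of Actb was 0.30 to 0.41 without Cre and 0.25 to 0.29 with Cre, and that of Gapdh was -0.14 to -0.08 and -0.07 to -0.04. Its part in the collagen values was not tested.

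**Figure D5:**
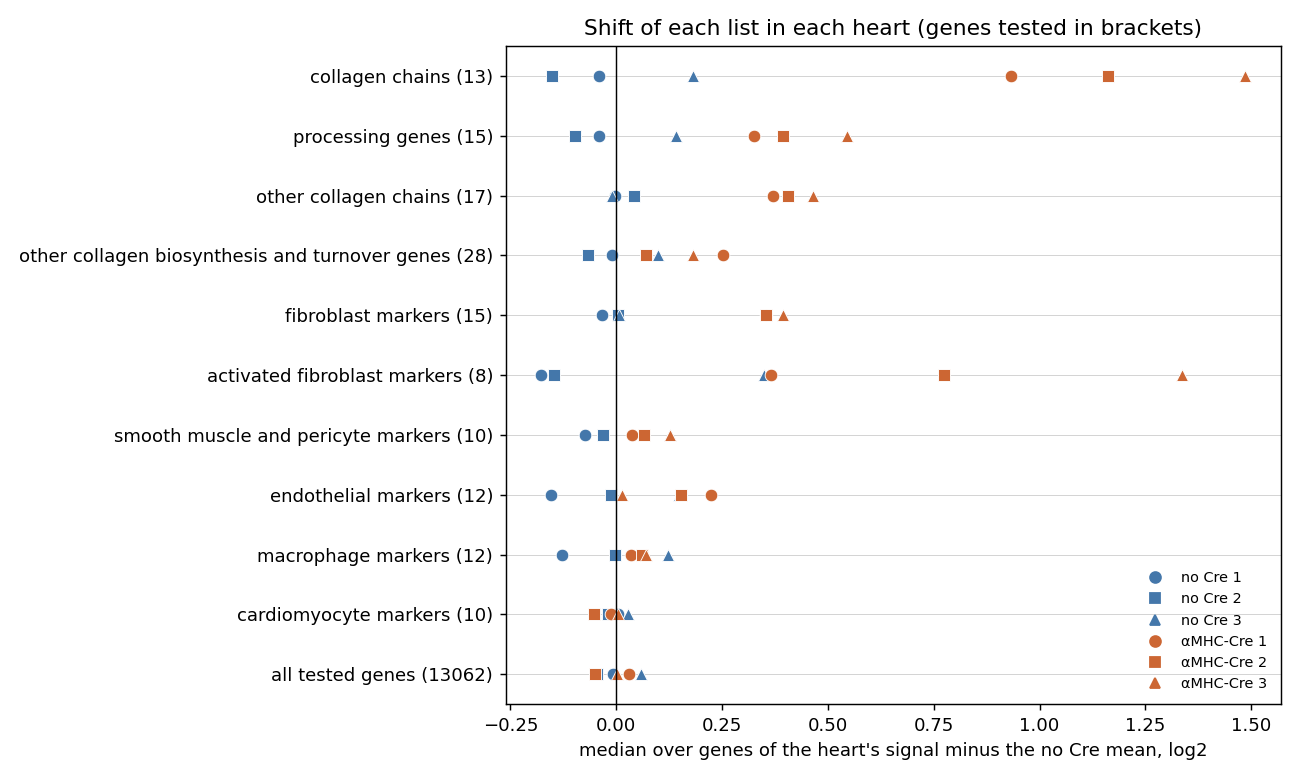
For each list of genes, the median over its tested genes of the heart's log2 signal minus the mean of the hearts without Cre (x axis); blue points are hearts without Cre, orange points hearts with Cre, and shapes give the replicate. The chains with Cre stand at 0.93 to 1.49 and the processing genes at 0.33 to 0.54, while the cardiomyocyte markers and all tested genes lie near 0.

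Promoters are shown because many members moved together and because Fog2 acts through GATA factors, which bind near genes. RefSeq promoters on GRCm38.p6, from 250 bases before to 50 bases after the start, were found for 22 of the 32 genes, as 23 promoters. Below are the 200 bases before the start of Col1a2 and Col3a1, chains that rose, and of P4ha1 and P4ha2, hydroxylases that did not pass. Capitals mark CCAAT, GATA between A or T on its left and A or G on its right, and ACGTG, the core of hypoxia response elements, on either strand.
Col1a2, chr6:4505418-4505617, plus strand: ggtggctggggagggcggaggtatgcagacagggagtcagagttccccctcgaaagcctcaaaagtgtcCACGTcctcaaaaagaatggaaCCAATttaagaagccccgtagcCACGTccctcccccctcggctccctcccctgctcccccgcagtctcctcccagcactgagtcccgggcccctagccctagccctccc
Col3a1, chr1:45311338-45311537, plus strand: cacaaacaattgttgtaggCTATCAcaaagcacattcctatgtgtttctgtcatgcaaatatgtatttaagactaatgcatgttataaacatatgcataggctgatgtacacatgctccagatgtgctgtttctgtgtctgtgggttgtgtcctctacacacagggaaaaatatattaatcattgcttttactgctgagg
P4ha1, chr10:59323096-59323295, plus strand: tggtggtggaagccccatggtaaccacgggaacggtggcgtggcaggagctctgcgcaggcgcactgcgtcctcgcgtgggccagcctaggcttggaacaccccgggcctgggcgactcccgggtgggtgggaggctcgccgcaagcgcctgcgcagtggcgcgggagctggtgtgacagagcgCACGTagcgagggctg
P4ha2, chr11:54100724-54100923, plus strand: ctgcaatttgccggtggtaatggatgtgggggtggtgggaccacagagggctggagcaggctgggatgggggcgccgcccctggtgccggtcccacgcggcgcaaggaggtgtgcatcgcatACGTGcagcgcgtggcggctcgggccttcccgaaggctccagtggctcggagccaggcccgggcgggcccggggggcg
In these windows Col1a2 holds CCAAT once and ACGTG on the reverse strand at 2 places, Col3a1 holds 1 GATA match on the reverse strand, and P4ha1 and P4ha2 hold 1 ACGTG match each.

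Over the whole promoters, CCAAT was found in 6 of 23 member promoters (26.1%) and in 37.4% of all 32851 promoters. A GATA match lay in 2 of 23 (8.70%), those of Col3a1 and Plod3, against 29.8% of all. ACGTG lay in 8 of 23 (34.8% against 19.6%), in 2 of 11 chain promoters and 6 of 12 processing promoters. GGGCGG was found in 18 of 23 (78.3% against 35.7%), and the member promoters had a median G+C content of 63.3% against 52.7% over all. The remaining letters searched were TATAAA (4 of 23; 13.6% of all), CAGACA (6; 21.0%), CATTCC (3; 14.7%), CCACCC (10; 31.5%) and TGACGTCA (0; 1.79%). In the printed windows no match overlaps one of other letters, 2 CCACCC matches of P4ha1 overlap each other, and a match is a description of the letters, not a binding site.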

How the data were processed

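The authors deposited 1 log2 signal per probe set and array, summarised with PLIER per the submitters' processing notes. The sources used here do not give its settings or any scaling between arrays. The log base of 2 follows from maxima of 13.97 to 14.00. The values were used as deposited, since array medians differed by at most 0.1. After removal of 64 control probe sets, the dimmest 40% by mean (18015) were left out. The groups were fitted with lmFit and eBayes of limma 3.58.1 (R 4.3.3), two-sided and with no covariates. Adjusted p-values are Benjamini-Hochberg values across 27022 probe sets. The procedure was tested on simulated data. The annotation gave 34945 probe sets 1 symbol, 932 several and 9160 none. Members and lists were chosen with earlier results of these data known. All members are named; from the pathway and marker lists, those past the threshold, or else those with the largest difference or mean, with exceptions said to be named after their values were seen. The number of arrays limits the precision. Alternatives covered scaling, filter, variance model, array weights, replicate block, probe set choice, offsets and leaving out each heart.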

Additional observations from a re-analysis of the deposited data

How the results depend on the processing

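No member was called lower under any of the 19 alternatives, and the medians of chains and of processing genes moved by less than the spread between replicates in each. Without the filter on dim probe sets, 1 chain and 0 processing genes passed (10 processing genes at an unadjusted p under 0.05 in limma). In all, 1 member, 2 member probe sets and 275 probe sets of the whole table passed. This fit tests more probe sets, including dim ones. Its standard errors also differ from the main fit, at 0.25 against 0.21 for Col1a1 and 0.12 against 0.13 for Col14a1. Why fewer passed was not tested. Settings chosen after seeing the data kept all probe sets and gave 11 chains each, either with a variance that follows the signal or with 64 added to the unlogged signal. Processing genes rose in 8 cases with trend and robust variances, in 7 with 64 added and in 7 with 64 added and no filter.

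Leaving out 1 heart gave 7 to 14 members, 7 to 11 chains, 0 to 4 processing genes, 11 to 25 member probe sets and 600 to 1075 probe sets of the table. The lowest counts came without aMHC_Cre 2, where 8 processing genes were higher at an unadjusted p under 0.05 in limma. The share of all genes at that threshold was not counted in this fit or in the fit without the filter. Processing genes numbered 1 without no_Cre 1 or aMHC_Cre 3 and 2 without no_Cre 2. P4ha2 changed sign without no_Cre 3 (0.0087) and without aMHC_Cre 3 (0.0032), with a range of -0.20 to 0.0087 over the hearts left out, and Col12a1 without aMHC_Cre 2 (-0.054), with a range of -0.054 to 0.31; the cause was not tested. With the replicate block, 909 probe sets, 13 members, 10 chains and 3 processing genes passed. Whether the replicate numbers pair the hearts is not known. Deviations of same-numbered hearts correlated at -0.06, 0.21 and -0.19 across probe sets, and those of other-numbered hearts at -0.20 to 0.27. With 3 hearts per group these values cannot decide it. The arrays carry no detection calls, so dim signals are not separated from background.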

Other observations

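The 13 member probe sets too dim for the test were read as values. A dim probe set of Col1a2 read 4.07, 4.23 and 3.89 in no Cre hearts, compared with 4.82, 5.09 and 4.98 in Cre hearts. One of Col8a1 read 3.46, 3.98 and 4.19 in no Cre hearts, compared with 4.77, 5.15 and 5.48 in Cre hearts, and one of Loxl1 read 4.03, 3.67 and 4.11 and then 4.79, 4.60 and 5.35. These differences of 0.90, 1.25 and 0.98 have the sign of the brighter probe sets of the same genes, which did not hold for every gene. A dim probe set of Col5a3 differed by 0.013 with overlapping groups, against 1.16 at the tested one. The 3 dim probe sets of Col12a1 differed by -1.29, -0.04 and 0.46, against 0.13 at the tested one, and at the first of them every Cre heart lay below every no Cre heart. A dim probe set of Col14a1 shows how unsteady the low end of the scale is, at 2.76, 3.31 and -6.69 in no Cre hearts, compared with 3.45, 3.34 and 3.39 in Cre hearts.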
